A study of Mus musculus with 9 samples.

Results

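Dapl1, Stc2, Lipg, Tbkbp1 and A730098P11Rik are 5 genes taken by name from the 24060 genes of a table of RNA levels in activated mouse CD8 T cells, because all 5 were low in the clone R7-II. They were chosen by their measured levels in all 3 clones, so the levels and differences of these 5 genes are given below as a description, with no test. Tests are given for other genes that belong to the same pathways or lie beside them on the chromosome.

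R7-I, R7-II and R7-III are lines of transnuclear mice on a BALB/c background, each made by nuclear transfer from 1 CD8 T cell that recognised the peptide ROP7 of Toxoplasma gondii, so that each line carries the T cell receptor of a single cell. Affinity for the peptide measured on purified proteins ran R7-I, R7-III, R7-II from high to low, and self-reactivity ran R7-III, R7-I, R7-II. Measured with membrane-anchored molecules in the paper, affinity was similar in R7-I and R7-III and lower in R7-II. Splenocytes of all 3 lines were cultured overnight with the ROP7 peptide at 10 µM and IL-2 at 10 ng/ml, and live CD3+ CD8+ cells that bound the ROP7 tetramer were sorted for RNA sequencing, giving 9 libraries, 3 per clone. Age and sex of the mice are not given in the sources used here, nor is it stated that the replicates came from separate mice, so the p-values below measure the spread between these libraries. All clones were activated, and no resting cells were analysed here.

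Dapl1, a short protein related to the death-associated protein Dap, belongs to a pair of proteins known from eggs to occupy dormant ribosomes. Stc2 encodes stanniocalcin-2, a secreted glycoprotein that blocks the protease PAPP-A and thereby keeps insulin-like growth factors bound, and its transcription is known to follow stress of the endoplasmic reticulum. Lipg encodes endothelial lipase, a secreted phospholipase that acts on high-density lipoprotein. Tbkbp1 encodes an adaptor, also called SINTBAD, which binds the kinases TBK1 and IKKε beside the adaptors Tank and Azi2. A730098P11Rik is an older name of Morf4l1-ps1, a transcribed pseudogene of Morf4l1, whose protein is a subunit of chromatin-modifying complexes.

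The levels are TPM values, which correct for transcript length and add up to the same total in every library. Between 13738 and 14434 genes were above 0 in a library, Pearson's r across genes between libraries of a clone lay between 0.992 and 0.997, and 11330 genes with a maximum above 1 TPM were tested. In the sort, 9 of 9 CD8 T cell markers were detected in every library, and their summed level was 2431 to 2492 in R7-I, 3348 to 3424 in R7-II and 2517 to 2656 TPM in R7-III. Markers of other spleen cells were also higher in R7-II. The summed B cell markers were at 8.34 to 14.8, 34.8 to 73.0 and 5.01 to 8.18 in R7-I, R7-II and R7-III, the MHC class II genes at 32.4 to 50.3, 112 to 183 and 24.3 to 28.1 TPM, and the myeloid markers at 0.91 to 2.23, 19.9 to 76.1 and 2.59 to 4.06 TPM. By the test given below, 9 of 9 B cell markers were higher in R7-II than in both R7-I and R7-III. So were 7 of 7 MHC class II genes and 5 of 7 myeloid markers tested. Itgam missed the threshold of 0.01 against R7-I (adjusted p = 0.0106) and Cd14 against R7-III (adjusted p = 0.0140). In every R7-I library, 1 myeloid marker was at 0. CD8 T cell markers also passed as higher, 7 of 9 in each comparison, where 40.6% and 35.6% of all genes tested did. Fcrla, Cd22, Blk, Fcer2a, Bank1, Ciita, Fcer1g, Csf1r, Csf3r, Cd14 and Itgam were above 1 TPM in R7-II alone. They were tested only through R7-II, so their direction was fixed by the filter. In a bulk sample, fewer cells of a type and less RNA per cell cannot be told apart.

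The following stretches of RefSeq sequence (GRCm38.p6, the build called mm10) run from 250 bases before to 50 bases after a start site. They are shown for Dapl1, Stc2 and Tbkbp1, because these genes were chosen as low in R7-II. No window is shown for Lipg or A730098P11Rik. Capitals mark matches to any of 10 short motifs on either strand.
Dapl1, chr2:59484403-59484702, plus strand: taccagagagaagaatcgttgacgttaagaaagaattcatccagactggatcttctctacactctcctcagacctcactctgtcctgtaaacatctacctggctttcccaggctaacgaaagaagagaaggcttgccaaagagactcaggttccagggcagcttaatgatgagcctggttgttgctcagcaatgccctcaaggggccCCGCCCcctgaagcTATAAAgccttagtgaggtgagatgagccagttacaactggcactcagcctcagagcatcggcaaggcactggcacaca
Stc2, chr11:31370012-31370311, minus strand: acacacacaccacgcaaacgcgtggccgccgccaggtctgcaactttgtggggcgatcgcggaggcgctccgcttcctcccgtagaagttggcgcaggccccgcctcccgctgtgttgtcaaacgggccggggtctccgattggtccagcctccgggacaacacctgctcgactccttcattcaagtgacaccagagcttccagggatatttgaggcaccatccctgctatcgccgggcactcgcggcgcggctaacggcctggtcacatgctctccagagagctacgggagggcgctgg
Tbkbp1 window 1, chr11:97151457-97151756, minus strand: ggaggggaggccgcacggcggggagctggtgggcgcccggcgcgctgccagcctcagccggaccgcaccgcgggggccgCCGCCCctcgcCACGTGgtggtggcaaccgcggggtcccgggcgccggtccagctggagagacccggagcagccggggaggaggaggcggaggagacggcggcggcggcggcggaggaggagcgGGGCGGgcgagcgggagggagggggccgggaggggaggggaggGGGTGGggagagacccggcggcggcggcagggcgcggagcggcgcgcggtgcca
Tbkbp1 window 2, chr11:97150026-97150325, minus strand: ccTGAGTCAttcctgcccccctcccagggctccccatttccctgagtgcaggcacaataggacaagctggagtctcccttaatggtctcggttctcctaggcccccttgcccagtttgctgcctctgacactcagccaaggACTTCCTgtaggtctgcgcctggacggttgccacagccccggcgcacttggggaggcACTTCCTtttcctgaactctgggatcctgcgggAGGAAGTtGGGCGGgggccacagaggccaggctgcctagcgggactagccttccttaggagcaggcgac

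The windows differed in composition. G and C made up 51.0% of the Dapl1 window, 64.7% of the Stc2 window, and 83.0% and 62.3% of the Tbkbp1 windows. The Dapl1 window held TATAAA, the TATA box, at position -29 (its first base, the start site being 0), as did 13.6% of the 32851 windows of the same length in the table, and GGGCGG, a GC box found in 35.7% of windows, on the other strand. The Tbkbp1 windows held CACGTG (an E-box, in 7.15% of windows) in the one, and TGANTCA (an AP-1 site, in 7.81%) with 3 copies of AGGAAGT (an ETS site, in 9.35%) in the other. Both also held GGGCGG, and window 1 held CCACCC, a site of the Krüppel-like kind present in 31.5% of windows. The last copy of AGGAAGT ended 1 base before GGGCGG without overlapping it, and the TATA box and the GC box of Dapl1 did not overlap. None of the 10 motifs, which also included TGACGTCA, GGTGTGA, TGATGNAA and GCGTGGG, in 1.79%, 3.98%, 3.97% and 5.04% of windows, matched the Stc2 window. These matches are letters in a window and not measured binding.

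Of the 5 genes, each had all 3 R7-II libraries below the other 6, which is what they were chosen for; 17.4% of the 11330 genes tested did so. All 5 also had a mean in R7-II more than 2-fold below both other clones, as did 2.52% of the genes tested. The mean level in R7-I was between 4.36 times (Lipg) and 7.42 times (Stc2) that in R7-II, and that in R7-III between 4.47 times (Lipg) and 7.99 times (Dapl1). The libraries of R7-I and R7-III overlapped for 5 of 5 genes. Likeness of R7-I and R7-III was also part of the choice, and the share over all genes was not taken. The median log2 difference of the 5 genes of R7-II was -1.89 from R7-I and -1.94 from R7-III, and that of R7-III from R7-I was 0.03, on the log2(TPM + 1) scale, which understates the change of low genes. Over all 11330 genes the medians were 0.17, 0.12 and 0.04. These comparisons share libraries, so their values are not independent of each other.

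**Figure D1:**
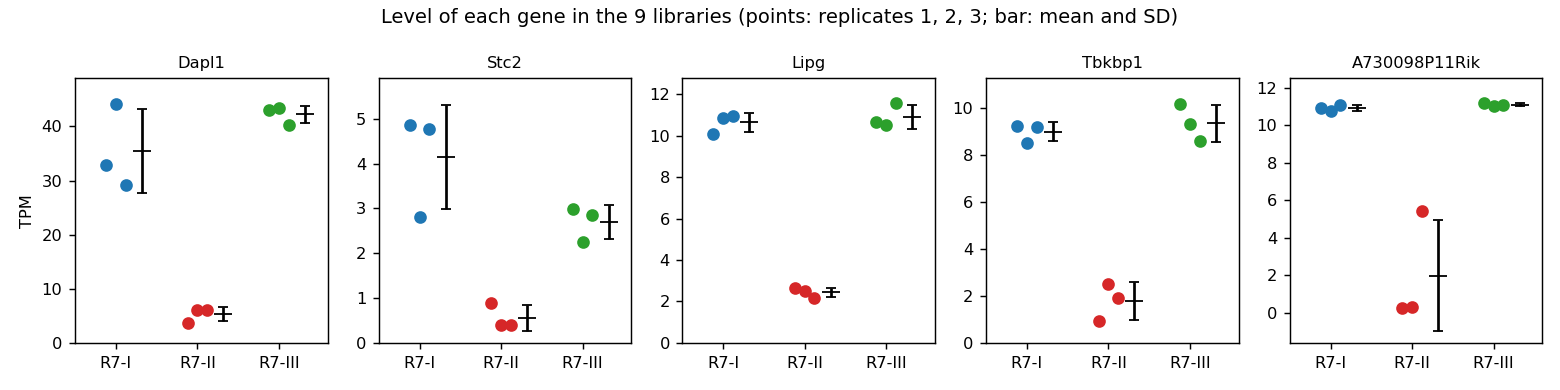
TPM of each of the 5 genes in the 9 libraries, by clone, on a linear axis of its own per gene; points are libraries in the order of replicates 1, 2 and 3, and the bar beside them is the mean with its SD (n = 3). The R7-II libraries lie lowest in every panel, at most at 6.07 TPM for Dapl1, and the R7-II libraries of A730098P11Rik are split, with 1 at 5.41 TPM.

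Dapl1, on chromosome 2 (chr2:59484653-59505020, plus strand), was the most abundant of the 5. It was at 33.0, 44.1 and 29.2 in R7-I replicates 1, 2 and 3, at 3.76, 6.07 and 6.03 in R7-II, and at 43.0, 43.4 and 40.3 TPM in R7-III. R7-III and R7-I were both high and overlapped, R7-I spreading more widely, and R7-II was low throughout. The means were 35.4 ± 7.73, 5.29 ± 1.32 and 42.2 ± 1.65 TPM (SD, n = 3 each), a log2 difference of -2.54 against R7-I and -2.80 against R7-III. Dapl1 thus stood at percentile 63.9 of the genes tested by mean level in R7-I, 67.5 in R7-III and 21.6 in R7-II.

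Dap itself, the nearest relative of Dapl1, followed another order. It was at 18.5, 19.4 and 20.2 in R7-I, 24.7, 23.8 and 20.2 in R7-II, and 32.5, 30.9 and 30.5 TPM in R7-III. R7-III was highest without overlap, and the highest R7-I and the lowest R7-II library nearly met. Dap was higher in R7-III than in R7-I by 0.67 on the log2 scale (SE 0.07, adjusted p = 2.03e-04, from limma and adjusted after Benjamini and Hochberg over the 11330 genes, as for every adjusted p here) and lower in R7-II than in R7-III by -0.44 (adjusted p = 2.82e-04). Between R7-II and R7-I, Dap did not pass the threshold of 0.01 (0.23, adjusted p = 0.0151), but passed without R7-II replicate 3 (adjusted p = 9.79e-04).

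A list of 16 genes around Dap, dormant ribosomes and autophagy was tested whole. R7-II had 8 higher and 2 lower than R7-I, against 40.6% and 15.5% of all genes tested. Those higher included Atg13 (log2 difference 0.80) and Ulk1 (0.53), which start autophagosome formation, and Map1lc3b (0.77), which coats the autophagosome. The mean of Map1lc3b was 61.0 TPM for R7-I and 105 TPM for R7-II. The lower ones were Eif5a (-0.37), the hypusinated translation factor, and Serbp1 (-0.22), a ribosome-binding protein, while Eef2 and Habp4, other partners of dormant ribosomes, did not pass (0.04 and -0.02, adjusted p = 0.131 and 0.862); under median-of-ratios scaling Eef2 was lower by -0.14 (adjusted p = 0.00172). Against R7-III, 7 were higher and 3 lower, with 35.6% and 18% of all genes, and Dap was the 1 that passed, as higher, in the comparison of R7-III with R7-I, where 8.41% of all genes did and 6.96% were higher. Without R7-II replicate 3, Habp4 was lower than in R7-III (adjusted p = 0.0015, against 0.0425 with it), as under both other scalings (adjusted p = 0.00889 and 0.00295). With libraries rescaled by the median of ratios, as an alternative to the TPM total, the counts were 4 higher and 3 lower against R7-I and 4 and 4 against R7-III. Of all 11330 genes, 2949 were higher and 3230 lower than in R7-I under that scaling, and 2896 and 3150 than in R7-III. It thus lowered the share of calls that were higher in R7-II from 72.4% to 47.7% against R7-I. Against R7-III the share fell from 66.4% to 47.9%.

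Stc2, on chromosome 11 (chr11:31359441-31370061, minus strand), was the least abundant. Its levels were 4.87, 2.82 and 4.78 in R7-I, 0.89, 0.40 and 0.39 in R7-II, and 2.98, 2.26 and 2.86 TPM in R7-III. R7-I replicates 1 and 3 stood above all others, R7-I replicate 2 lay within the R7-III range, and R7-II was below 1 TPM throughout. The means were 4.16 ± 1.16, 0.560 ± 0.286 and 2.70 ± 0.386 TPM (SD, n = 3 each). R7-II differed from R7-I by -1.71 and from R7-III by -1.26 on the log2 scale, and R7-III differed from R7-I by -0.46. With a pseudocount of 0.1 the first 2 of these became -2.73 and -2.16, and with one of 5 they became -0.71 and -0.47.

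The partners of stanniocalcin-2 were mostly silent. Stc1 was listed at 0 to 0.06 TPM, and Pappa, which encodes PAPP-A, at 0 in all 9 libraries. Of 12 genes listed for this axis, 5 passed the filter on low levels. In R7-II, 5 of these 5 were above R7-I and 4 were above R7-III, against 40.6% and 35.6% of all genes tested. R7-III against R7-I gave 0 in limma, and 0 had an unadjusted p under 0.05. Igfbp4, which binds insulin-like growth factors and is the substrate of PAPP-A, was at 4.76, 5.81 and 4.97 in R7-I, 11.04, 14.27 and 20.56 in R7-II, and 5.60, 6.67 and 5.04 TPM in R7-III. All R7-II libraries were thus above the others (log2 difference 1.36 and 1.23, SE 0.18, adjusted p = 6.49e-05 and 1.40e-04). Irs2 and Insr, an adaptor of the insulin receptor and the receptor itself, were higher by 0.94 and 0.59 than in R7-I and by 1.15 and 0.57 than in R7-III. Under quantile normalization Insr differed from R7-I by 0.23 and no longer passed (adjusted p = 0.0129). Igf1r passed against R7-I (0.36, adjusted p = 0.0084) and not against R7-III (0.33, adjusted p = 0.0137). The call against R7-I was lost without any 1 of 7 libraries, R7-I replicates 1 and 2, R7-II replicates 1 and 2 and each of R7-III (adjusted p = 0.0123 to 0.0377), and the difference from R7-III passed without R7-I or R7-II replicate 3 (adjusted p = 0.00328 to 0.00684). Under median-of-ratios scaling, 3 of the 5 passed in each comparison, all higher in R7-II. Of all 11330 genes, 2949 were higher than in R7-I under that scaling and 2896 than in R7-III. With TPM as given, leaving out R7-I replicate 1 lowered the count against R7-I from 5 to 3.

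Genes of the endoplasmic reticulum stress and integrated stress responses, to which Stc2 is known to belong, moved in both directions. Of 21 tested, R7-II had 3 higher and 10 lower than R7-I, and 3 higher and 11 lower than R7-III. Of all genes tested, 40.6% were higher and 15.5% lower than in R7-I, and 35.6% and 18% than in R7-III. Under median-of-ratios scaling 3 of the 21 were higher and 12 lower in both. Of all 11330 genes, 2949 were higher and 3230 lower than in R7-I under that scaling, and 2896 and 3150 than in R7-III. Of the 10 lower than in R7-I, 7 encode chaperones and folding factors of the reticulum. Sdf2l1 had means of 105, 51.8 and 106 TPM in the order R7-I, R7-II, R7-III (log2 difference -1.01 and -1.03), and Manf (-0.75 and -0.48), Hspa5, the chaperone BiP (-0.48 and -0.29), Pdia4 (-0.38 and -0.36), Creld2 (-0.39 and -0.31) and Hyou1 (-0.27 and -0.24) were lower as well. So was the transcription factor Atf3, at 33.4, 14.5 and 30.02 TPM (-1.15 and -0.999). Chac1 (-0.42 and -0.66, adjusted p = 2.04e-04 and 9.23e-06) and Asns (-0.33 and -0.87) were also lower than in R7-I and R7-III. The call of Asns against R7-I (adjusted p = 0.00991) was lost without any 1 of 7 libraries (adjusted p = 0.01005 to 0.0427). The exceptions were R7-I replicate 2 and R7-III replicate 1. Chac1 was not followed through the alternatives by itself. The 3 higher genes were Eif2ak3, the kinase PERK (0.81 and 0.86), Ddit3, the factor CHOP (0.81 and 0.88), and Ppp1r15a, a phosphatase subunit (0.37 and 0.58). Atf4, which acts between PERK and CHOP, missed the threshold against R7-I (-0.11, adjusted p = 0.0164) and was lower than in R7-III (-0.14, adjusted p = 0.0041), and Xbp1, Trib3 and Herpud1 passed in neither. Under median-of-ratios scaling Atf4 was lower in both (-0.28 and -0.27, adjusted p = 3.07e-05 and 4.85e-05) and Herpud1 lower than in R7-III (-0.18, adjusted p = 0.00801), while under quantile normalization Atf4 passed in neither (adjusted p = 0.175 and 0.0903). Without R7-I replicate 2 or R7-II replicate 1, Atf4 did pass against R7-I (adjusted p = 0.00455 to 0.00615), and no longer passed against R7-III without replicate 2 or 3 of R7-II or of R7-III (adjusted p = 0.0104 to 0.0196).

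R7-III and R7-I differed in 4 of these 21 genes (19%), against 8.41% of all genes tested. Asns, asparagine synthetase, was higher in R7-III by 0.54 (adjusted p = 0.00321) and Nupr1, a stress-induced cofactor at 1.11 TPM or less, by 0.77 (adjusted p = 0.00974). Hspa5 and Manf were lower by -0.18 and -0.27 (adjusted p = 0.0011 and 0.00168), so that R7-I was highest, R7-III in between and R7-II lowest for both. Leaving out 1 library ended the call of Asns in 4 cases, namely without replicate 2 or 3 of R7-I or R7-III (adjusted p = 0.0151 to 0.0168), and that of Nupr1 in 6 cases, namely without any R7-I library, R7-II replicate 3 or R7-III replicate 2 or 3 (adjusted p = 0.0123 to 0.0382). Manf did not pass without R7-I replicate 1 (adjusted p = 0.0101). That order differed from that of Sdf2l1, which did not pass between R7-III and R7-I (0.01, adjusted p = 0.931). Stc2 itself also had its highest mean in R7-I, but there the libraries of R7-I and R7-III overlapped.

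**Figure D2:**
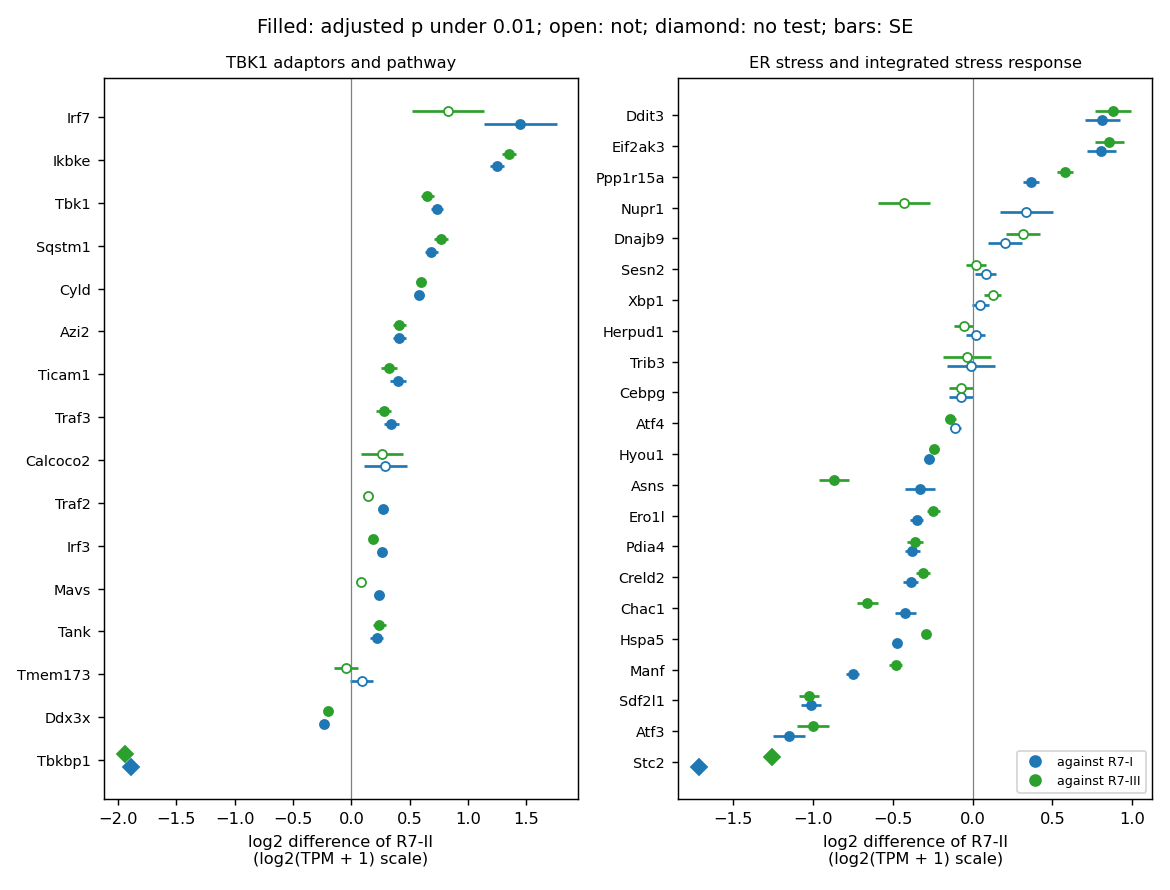
Log2 difference of R7-II on the log2(TPM + 1) scale against R7-I (blue) and R7-III (green), with its SE, for the TBK1 list with Tbkbp1 (left) and the stress list with Stc2 (right); filled points passed an adjusted p of 0.01, open points did not, and diamonds were not tested. Tbkbp1 lies at -1.89 and -1.94 while Ikbke lies at 1.25 and 1.35, and Stc2 lies below every gene of the stress list.

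Tbkbp1, on chromosome 11 (chr11:97136171-97151506, minus strand), was at 9.21, 8.51 and 9.19 in R7-I, 0.92, 2.51 and 1.90 in R7-II, and 10.1, 9.30 and 8.56 TPM in R7-III. The 6 libraries of R7-I and R7-III lay close together with a coefficient of variation of 6.49%, and R7-II replicate 1 was the lowest. The means were 8.97 ± 0.398, 1.78 ± 0.802 and 9.33 ± 0.791 TPM (SD, n = 3 each). This was a log2 difference of -1.89 and -1.94, and one of 0.05 for R7-III against R7-I.

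The kinases that Tbkbp1 binds were on the other side. Ikbke, which encodes IKKε, was at 35.5, 37.9 and 39.1 in R7-I, 91.5, 82.5 and 97.7 in R7-II, and 35.1, 35.8 and 33.5 TPM in R7-III. Every R7-II library was far above the highest of the others. Ikbke was higher by 1.25 than in R7-I and by 1.35 than in R7-III (SE 0.06, adjusted p = 9.06e-08 and 7.24e-08). Tbk1 was at 33.7, 32.5 and 32.2 in R7-I, 56.0, 51.0 and 58.8 in R7-II, and 34.0, 34.8 and 35.5 TPM in R7-III, higher in R7-II by 0.73 and 0.65 (adjusted p = 8.75e-07 and 1.93e-06). Both kinases passed in both comparisons under every alternative that was run.

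The other adaptors of these kinases did not share the direction of Tbkbp1. Azi2 (NAP1) was at 36.6, 49.2 and 36.6 TPM on average in R7-I, R7-II and R7-III and was higher in R7-II by 0.41 in both comparisons (adjusted p = 9.46e-05 and 1.00e-04). Tank was higher by 0.22 and 0.24 (adjusted p = 0.00465 and 0.00272), but under median-of-ratios scaling these were 0.04 and 0.12 and no longer passed (adjusted p = 0.412 and 0.0490). The call against R7-I was also lost without R7-I replicate 2 or 3 or R7-II replicate 1 or 3 (adjusted p = 0.0114 to 0.0187), and that against R7-III without R7-III replicate 2 (adjusted p = 0.0143). Sqstm1, the autophagy receptor p62 and a target of TBK1, was higher by 0.68 and 0.77, and Cyld, a deubiquitinase that restrains these kinases, by 0.58 and 0.60. Irf7, an interferon regulatory factor they activate, was higher than in R7-I (1.45, SE 0.31, adjusted p = 0.00179) and did not pass against R7-III (0.83, adjusted p = 0.0348), though it did without R7-II replicate 1 (adjusted p = 6.47e-04). Under quantile normalization Irf7 no longer passed against R7-I (1.16, adjusted p = 0.0129).

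Of 15 genes of this list tested, R7-II had 12 higher and 1 lower than R7-I, and 9 higher and 1 lower than R7-III, against 40.6% and 15.5%, and 35.6% and 18%, of all genes tested. The lower gene was Ddx3x, an RNA helicase (-0.23 and -0.20). Under median-of-ratios scaling the counts were 6 higher and 1 lower, and 5 higher and 1 lower. Of all 11330 genes, 2949 were higher and 3230 lower than in R7-I under that scaling, and 2896 and 3150 than in R7-III. R7-III against R7-I gave 0 of the 15 in limma, and 2 had an unadjusted p under 0.05. Irf7 is also expressed by B cells and myeloid cells, whose markers were higher in R7-II as given above, and their part in its level was not tested.

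Lipg, on chromosome 18 (chr18:74939322-74961263, minus strand), was at 10.11, 10.88 and 10.95 in R7-I, 2.64, 2.50 and 2.19 in R7-II, and 10.66, 10.51 and 11.58 TPM in R7-III. It varied little within each clone, and R7-I and R7-III lay on top of each other. The means were 10.6 ± 0.466, 2.44 ± 0.230 and 10.9 ± 0.579 TPM (SD, n = 3 each), a log2 difference of -1.76 and -1.79, and 0.03 for R7-III against R7-I. Its name comes from endothelial cells, but their defining markers were near 0, with Cdh5 and Emcn listed at 0 in all 9 libraries and Kdr, Tek, Tie1 and Vwf at 0.15 TPM or less. Of 9 endothelial markers, 2 were above 1 TPM in any library, Pecam1, which leukocytes also express, and Egfl7. Pecam1 was higher and Egfl7 lower in R7-II than in either other clone, and the summed list was at 10.6 to 11.6, 27.5 to 31.9 and 16.3 to 19.0 in R7-I, R7-II and R7-III.

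Of 24 genes listed for extracellular lipases and lipoprotein handling, 13 were tested. R7-II had 7 of them higher and 4 lower than R7-I, against 40.6% and 15.5% of all genes tested. Under median-of-ratios scaling 6 were higher and 4 lower, against 2949 and 3230 of all 11330 genes. Lipc, hepatic lipase and a close relative of Lipg, was listed at 0 in every library, and Lpl, lipoprotein lipase, at 0.23 to 1.02 TPM. Lpl did not pass (0.40 in both comparisons, adjusted p = 0.0210 and 0.0212), nor did Furin, a protease that cuts these lipases (0.04 and 0.08, adjusted p = 0.559 and 0.264). The lysosomal lipase Lipa had means of 18.5, 34.7 and 19.2 TPM in R7-I, R7-II and R7-III (log2 difference 0.87 and 0.82, adjusted p = 1.32e-07 and 2.01e-07). Scarb1, the receptor of high-density lipoprotein, was lower in R7-II by -0.44 and -0.71, and Lrp8, a lipoprotein receptor, by -0.58 and -0.37. Abcg1, which exports cholesterol, was higher by 1.72 and 1.79, and Lrp1 by 1.39 and 1.11, both from under 1 TPM in R7-I and R7-III. Abcg1 and Lrp1 thus passed the filter on low levels only through R7-II, which fixed their direction. Both are among the genes counted as higher. Against R7-III, Lrp8 lost its call without R7-III replicate 3 (adjusted p = 0.0113).

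Against R7-III, 4 of the 13 were higher and 3 lower, which is 53.8% called, with 53.6% of all genes. Angptl4, a secreted inhibitor of lipases, was above R7-I in R7-II (0.48, adjusted p = 0.00104) and as high in R7-III as in R7-II (means of 9.72 and 9.73 TPM), and it was the gene of this list that passed between R7-III and R7-I (0.48, adjusted p = 0.00608). That call was lost without R7-I replicate 1 or 3 or any R7-III library (adjusted p = 0.0148 to 0.0295), and under quantile normalization Angptl4 passed against R7-I in neither R7-II nor R7-III (0.14 and 0.35, adjusted p = 0.141 and 0.0161). Abcg1, Lrp1, Lipa, Pltp and Lpl are also known from macrophages. The myeloid markers summed to 19.9 to 76.1 TPM in R7-II against at most 4.06 TPM elsewhere, and their part in these levels was not tested. Lipg itself was lower in R7-II, and the part of myeloid cells in its level was not tested.

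**Figure D3:**
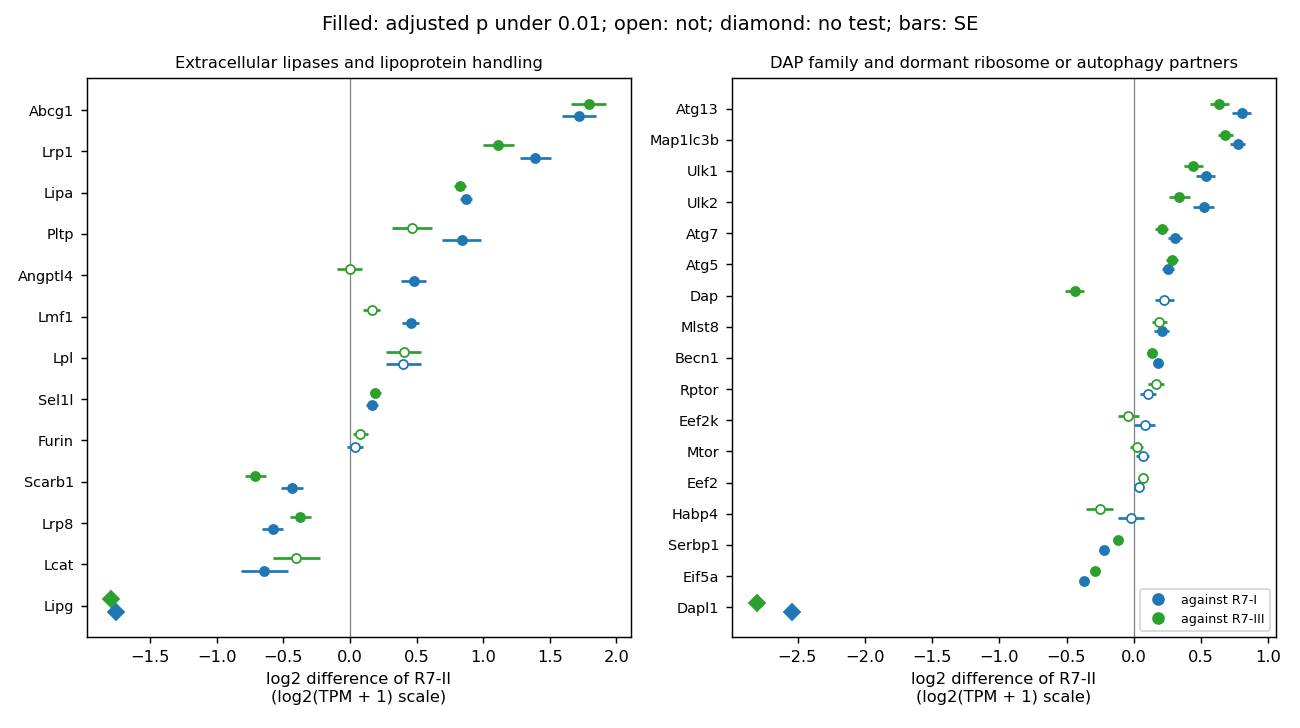
Log2 difference of R7-II on the log2(TPM + 1) scale against R7-I (blue) and R7-III (green), with its SE, for the lipase and lipoprotein list with Lipg (left) and the list around Dap with Dapl1 (right); filled points passed an adjusted p of 0.01, open points did not, and diamonds were not tested. Lipg at -1.76 and -1.79 and Dapl1 at -2.54 and -2.80 lie below every other gene shown beside them, and Dap is lower in R7-II only against R7-III.

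A730098P11Rik, on chromosome 16 (chr16:24529314-24534472, plus strand), lies within the span of Lpp (chr16:24393350-24992578), a gene of focal adhesions. It was at 10.93, 10.74 and 11.05 in R7-I, 0.24, 0.30 and 5.41 in R7-II, and 11.17, 11.03 and 11.09 TPM in R7-III. The 6 libraries of R7-I and R7-III were nearly equal, R7-II replicates 1 and 2 were near 0, and R7-II replicate 3 lay at 49.2% of the mean of those 6. The means were 10.9 ± 0.156, 1.98 ± 2.97 and 11.1 ± 0.0702 TPM (SD, n = 3 each), so that in R7-II the SD exceeded the mean. The log2 difference was -2.45 and -2.47 with all libraries, and -3.23 and -3.25 without R7-II replicate 3.

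The evenness of its other libraries was unusual, though likeness of R7-I and R7-III was part of the choice of the 5 genes. Over R7-I and R7-III, the coefficient of variation was 1.37% for A730098P11Rik, 4.57% for Lipg, 6.49% for Tbkbp1, 16.04% for Dapl1 and 32.4% for Stc2. Of 2879 genes with a mean of 5 to 20 TPM in these 6 libraries, 4 had a lower one than A730098P11Rik, and their median was 8.25%. In R7-II, on the other hand, its highest library was 22.5 times its lowest. A spread of over 10-fold within a clone, among genes reaching above 5 TPM, was seen for 10 genes in R7-I, 19 in R7-II and 7 in R7-III.

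The transcript of this pseudogene nearly repeats the coding part of its parent gene Morf4l1 (chr9:90091665-90114774), so reads can be hard to assign. The GENCODE M21 model of the pseudogene has 969 bases and matched Morf4l1 over all of them with 2 mismatches and no gap, an identity of 99.8%. The stretches around both differences are shown because they tell this model from Morf4l1, with the differing base in capitals.
Morf4l1-ps1, around base 519 of its transcript, chr16:24529882-24529942: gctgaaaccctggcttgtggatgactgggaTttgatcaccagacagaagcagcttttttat
Morf4l1, around base 718 of its transcript: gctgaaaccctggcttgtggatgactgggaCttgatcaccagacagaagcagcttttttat
Morf4l1-ps1, around base 957 of its transcript, chr16:24530320-24530362: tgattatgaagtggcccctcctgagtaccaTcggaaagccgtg
Morf4l1, around base 1156 of its transcript: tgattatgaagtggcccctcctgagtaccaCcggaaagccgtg

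Reads were 100 bases long and not strand-specific. Of the 870 positions at which such a read can start in the pseudogene model, 757 (87.0%) give a read that also occurs word for word in a Morf4l1 transcript, and 113 (12.99%) do not. The RefSeq record of the pseudogene is longer than this model, and the rest of it was not compared. The level of A730098P11Rik is therefore uncertain, since it depends on how RSEM divided shared reads. The reference is C57BL/6J and the mice have a BALB/c background, and whether BALB/c carries both differences was not tested.

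Morf4l1 was far more abundant and moved little. It was at 337, 331 and 348 in R7-I, 383, 384 and 388 in R7-II, and 339, 343 and 347 TPM in R7-III. All R7-II libraries were above the others, and R7-II replicate 3 did not stand apart (log2 difference 0.18 and 0.17, SE 0.03, adjusted p = 9.46e-05 and 2.02e-04). Under median-of-ratios scaling neither passed (adjusted p = 0.783 and 0.213). The level of A730098P11Rik was 3.25%, 3.24% and 3.17% of that of Morf4l1 in R7-I, 0.0626%, 0.0782% and 1.39% in R7-II, and 3.30%, 3.22% and 3.20% in R7-III. Lpp, whose reads could overlap the pseudogene, was higher in R7-II by 0.31 and 0.37 and did not pass (adjusted p = 0.0489 and 0.0248), except against R7-III without R7-II replicate 2 (adjusted p = 0.00650).

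**Figure D4:**
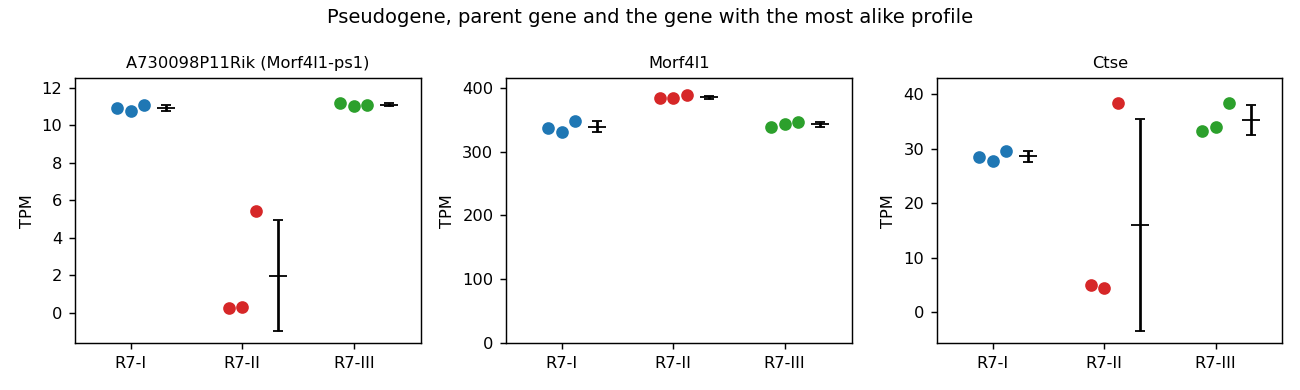
TPM of A730098P11Rik, of its parent gene Morf4l1 and of Ctse in the 9 libraries, by clone, on a linear axis of its own per gene; points are libraries in the order of replicates 1, 2 and 3, and the bar is the mean with its SD (n = 3). R7-II replicate 3 is at 5.41 TPM for A730098P11Rik and at 38.4 TPM for Ctse, far above the other R7-II libraries, while Morf4l1 lies between 383 and 388 TPM in all 3.

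The 3 genes with the profile most like that of each of the 5 were taken by the root mean square (RMS) distance of centred log2(TPM + 1) values over the 9 libraries. Since the 5 genes were chosen for their levels, these distances are a description. For Dapl1 the nearest were Tnfsf11, which encodes RANKL (RMS 0.16), Tbx21, the transcription factor T-bet (0.22), and Rnf157, a ubiquitin ligase (0.31). Tnfsf11 was at 73.1, 87.9 and 73.1 in R7-I, 12.3, 14.2 and 14.8 in R7-II, and 97.3, 82.7 and 96.1 TPM in R7-III. For Stc2 they were the chemokine Ccl3 (0.22), the death ligand Fasl (0.22) and the elongation factor Ell2 (0.24). All 3 shared with Stc2 a mean that was highest in R7-I, such as 1435 TPM for Ccl3 against 1093 TPM in R7-III and 409 TPM in R7-II. Stc2 was below 1 TPM in R7-II, where this scale understates change. Its log2 difference from R7-I was -1.71 on this scale and -2.73 with a pseudocount of 0.1. Its likeness to more abundant genes therefore depends on the pseudocount, and distances with another pseudocount were not taken.

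For Lipg they were Chst11, a chondroitin sulfotransferase (RMS 0.13), the kinase Nek6 (0.18) and Nkain1 (0.21), and for Tbkbp1 they were Nek6 (0.12), Crabp2, a retinoic acid binding protein (0.17), and Rnf157 (0.19). Nek6 was at 19.0 ± 0.658, 5.07 ± 1.18 and 19.9 ± 1.37 in R7-I, R7-II and R7-III (SD, n = 3 each). Among the 5 genes themselves, Lipg and Tbkbp1 were closest (0.26), and Stc2 and A730098P11Rik were farthest apart (0.88). A730098P11Rik had no near match. Its nearest were Ctse, the protease cathepsin E (0.45), Nmral1 (0.49) and the chemokine Ccl9 (0.56).

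Ctse shared the split of the R7-II libraries. It was at 28.5, 27.7 and 29.6 in R7-I, 4.91, 4.47 and 38.4 in R7-II, and 33.3, 34.0 and 38.4 TPM in R7-III. R7-II replicates 1 and 2 were low and replicate 3 was as high as the highest R7-III library. Nmral1, on chromosome 16 like the pseudogene, was at 1.40, 2.08 and 4.71 in R7-II, with replicate 3 again highest, and Ccl9 was at 3.29, 3.34 and 4.48 TPM. For Dapl1, Stc2, Lipg and Tbkbp1, R7-II replicate 3 lay within the range of the other R7-II libraries or just below it.

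The genes next to the 5 on their chromosomes were compared to see whether a low level in R7-II extended beyond the gene. Of the 3 nearest genes tested on either side of each, 30 in all, 13 were higher and 5 lower in R7-II than in R7-I, which is 60.0% called against 56.1% of all genes. Against R7-III, 12 were higher and 5 lower, 56.7% against 53.6%. Rpl17 beside Lipg, a ribosomal protein gene, was the 1 neighbour called in the comparison of R7-III with R7-I (-0.18, adjusted p = 0.00617), where 8.41% of all genes were. Leaving out any R7-I or R7-III library ended that call (adjusted p = 0.0104 to 0.0306), as did median-of-ratios scaling (-0.22, adjusted p = 0.0134). Under median-of-ratios scaling the splits were 9 higher and 10 lower against R7-I and 7 higher and 5 lower against R7-III. Of all 11330 genes, 2949 were higher and 3230 lower than in R7-I under that scaling, and 2896 and 3150 than in R7-III.

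Tbx21, which lies 20840 bases from Tbkbp1, was the neighbour with the largest fall. It was at 45.5, 47.1 and 44.2 in R7-I, 3.38, 6.47 and 5.91 in R7-II, and 54.3, 52.7 and 42.1 TPM in R7-III. R7-I and R7-III overlapped, and R7-II was far below both, with replicate 1 lowest as for Tbkbp1. The log2 difference of Tbx21 was -2.94 and -3.05 (SE 0.17, adjusted p = 2.31e-07 and 2.01e-07), larger than that of Tbkbp1. Tbx21 was also known to be low in R7-II when the genes were chosen. By profile it ranked 2 of 11329 genes for likeness to Dapl1 and 172 for likeness to Tbkbp1 (RMS 0.52).

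On the other side of Tbkbp1, 8204 bases away, Kpnb1, which encodes importin beta-1, was lower in R7-II by -0.34 and -0.35 (SE 0.02, adjusted p = 9.99e-07 and 8.54e-07). Farther out the direction turned. Osbpl7 was higher by 0.36 and 0.40 and Npepps, an aminopeptidase, by 0.49 and 0.39, and Mrpl45 and Mir8103 did not pass, though without R7-II replicate 1 Mrpl45 was lower than in R7-I (adjusted p = 0.00791), as it was under median-of-ratios scaling and quantile normalization (-0.28 and -0.22, adjusted p = 6.77e-05 and 4.98e-04). Osbpl7 lost its call against R7-I under quantile normalization (adjusted p = 0.0810).

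Beside Dapl1, both nearest genes tested on its upstream side were lower in R7-II. Of all genes tested, 15.5% were lower than in R7-I and 18% than in R7-III. Pkp4, a plakophilin of cell junctions 129448 bases away, was lower by -0.60 and -0.72, and Acvr1, a receptor of bone morphogenetic proteins 917825 bases away, by -0.72 and -0.96 (adjusted p = 8.32e-05 and 2.39e-05 for Pkp4, 7.47e-04 and 1.11e-04 for Acvr1). Tanc1, 106801 bases downstream, did not pass (adjusted p = 0.995 and 0.891), except as lower than in R7-I under quantile normalization (-0.36, adjusted p = 6.53e-04), and Baz2b was higher by 0.55 and 0.35. Wdsub1 was higher by 0.47 and 0.43, and lost both calls under median-of-ratios scaling and against R7-I without any R7-I library or R7-II replicate 1 or 2 (adjusted p = 0.0104 to 0.0219). Against R7-III, leaving out any library but R7-III replicate 1 ended its call (adjusted p = 0.01002 to 0.0429), and that of Baz2b was lost without R7-III replicate 2 (adjusted p = 0.0131), under median-of-ratios scaling (0.24, adjusted p = 0.0145) and under quantile normalization (0.16, adjusted p = 0.0878). The latter also ended its call against R7-I (0.22, adjusted p = 0.0265). Cytip was higher than in R7-I by 0.33 and did not pass against R7-III (0.25, adjusted p = 0.0138). Its call against R7-I was lost without R7-I replicate 1 or 3 or R7-II replicate 3 (adjusted p = 0.0101 to 0.0131) and under median-of-ratios scaling (0.15, adjusted p = 0.132) and quantile normalization (0.19, adjusted p = 0.0733), and it passed against R7-III without R7-III replicate 1 (adjusted p = 0.00873).

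Beside Stc2, 4 of 6 genes tested were higher in R7-II and 0 were lower in either comparison in limma. Nor was any lower at an unadjusted p under 0.05. Of all genes tested, 40.6% were higher and 15.5% lower than in R7-I, and 35.6% and 18% than in R7-III. Whether these 6 genes differ from those shares was not tested. Nsg2, a neuronal vesicle protein 629643 bases away, was the neighbour with the largest rise. It was at 0.12, 0.13 and 0 in R7-I, 3.98, 7.75 and 5.39 in R7-II, and 0.31, 0.26 and 0.46 TPM in R7-III, so that it was near 0 outside R7-II (log2 difference 2.59 and 2.28, SE 0.18, adjusted p = 8.84e-07 and 2.05e-06). Nsg2 passed the filter on low levels only through R7-II, so its direction was fixed by the filter. The paper also lists it among the genes most raised in R7-II. Erlec1 was higher by 0.57 and 0.41 and Asb3 by 0.39 and 0.30. Under quantile normalization Erlec1 lost both calls (0.26 and 0.23, adjusted p = 0.0140 and 0.0275), as did Asb3 (0.094 and 0.11, adjusted p = 0.176 and 0.111), and under median-of-ratios scaling Asb3 no longer passed against R7-III (0.18, adjusted p = 0.0164). Bod1 was higher by 0.28 and 0.24, but lost both calls under median-of-ratios scaling. It also lost them on leaving out R7-I replicate 1 or 2 or R7-II replicate 1 against R7-I (adjusted p = 0.0111 to 0.0151), and any of 6 libraries against R7-III, the exceptions being R7-I replicates 2 and 3 and R7-II replicate 2 (adjusted p = 0.0130 to 0.0285). Chac2 and Cpeb4 did not pass, but Cpeb4 was higher without R7-II replicate 2 (adjusted p = 0.00131 and 0.00113). Chac2 became lower than in R7-I under median-of-ratios scaling (-0.33, adjusted p = 0.00915) and quantile normalization (-0.51, adjusted p = 8.95e-04).

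Beside Lipg, Mbd1, which binds methylated DNA, was higher in R7-II by 0.46 and 0.41 and Cxxc1, which binds unmethylated CpG, by 0.36 and 0.27. Of the 4 genes tested that lie nearest to it, Rpl17, BC031181 and Acaa2 did not pass against R7-I (-0.04, -0.08 and 0.24, adjusted p = 0.269, 0.0616 and 0.0138). Under median-of-ratios scaling Rpl17 and BC031181 were lower (-0.22 and -0.26, adjusted p = 0.00324 and 2.37e-04), and Acaa2 was higher without R7-I or R7-III replicate 3 (adjusted p = 0.00889 to 0.00896). Dym, 57436 bases away, was higher than in R7-I by 0.17 (adjusted p = 0.00434). It lost that call under median-of-ratios scaling (0.0010, adjusted p = 0.983) and quantile normalization (-0.039, adjusted p = 0.359), and without R7-I replicate 1 or 2 or R7-II replicate 1 (adjusted p = 0.0139 to 0.0204). Rpl17 was higher than in R7-III by 0.13 and lost that call under median-of-ratios scaling (0.0042, adjusted p = 0.947) and without R7-I replicate 2 or replicate 2 or 3 of R7-II or R7-III (adjusted p = 0.0104 to 0.0271). Beside A730098P11Rik, Bcl6, a transcriptional repressor of lymphocytes 540448 bases away, was higher in R7-II by 1.29 and 1.58 (adjusted p = 1.22e-05 and 3.00e-06), and Ccdc50 was lower by -0.70 and -0.87 (adjusted p = 4.58e-07 and 1.47e-07). The other 4, Rtp4, 1110054M08Rik, Il1rap and Opa1, did not pass in either comparison. Rtp4, an interferon-induced chaperone of receptors, was higher by 1.07 and 0.97 (adjusted p = 0.0262 and 0.0411), and passed in both without R7-II replicate 1 (adjusted p = 1.82e-04 and 2.93e-04). The long noncoding RNA 1110054M08Rik passed against R7-III without R7-II replicate 1 or R7-III replicate 2 (adjusted p = 0.00489 to 0.00607). Bcl6 is also expressed by B cells, whose markers were higher in R7-II, and their part in its level was not tested.

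**Figure D5:**
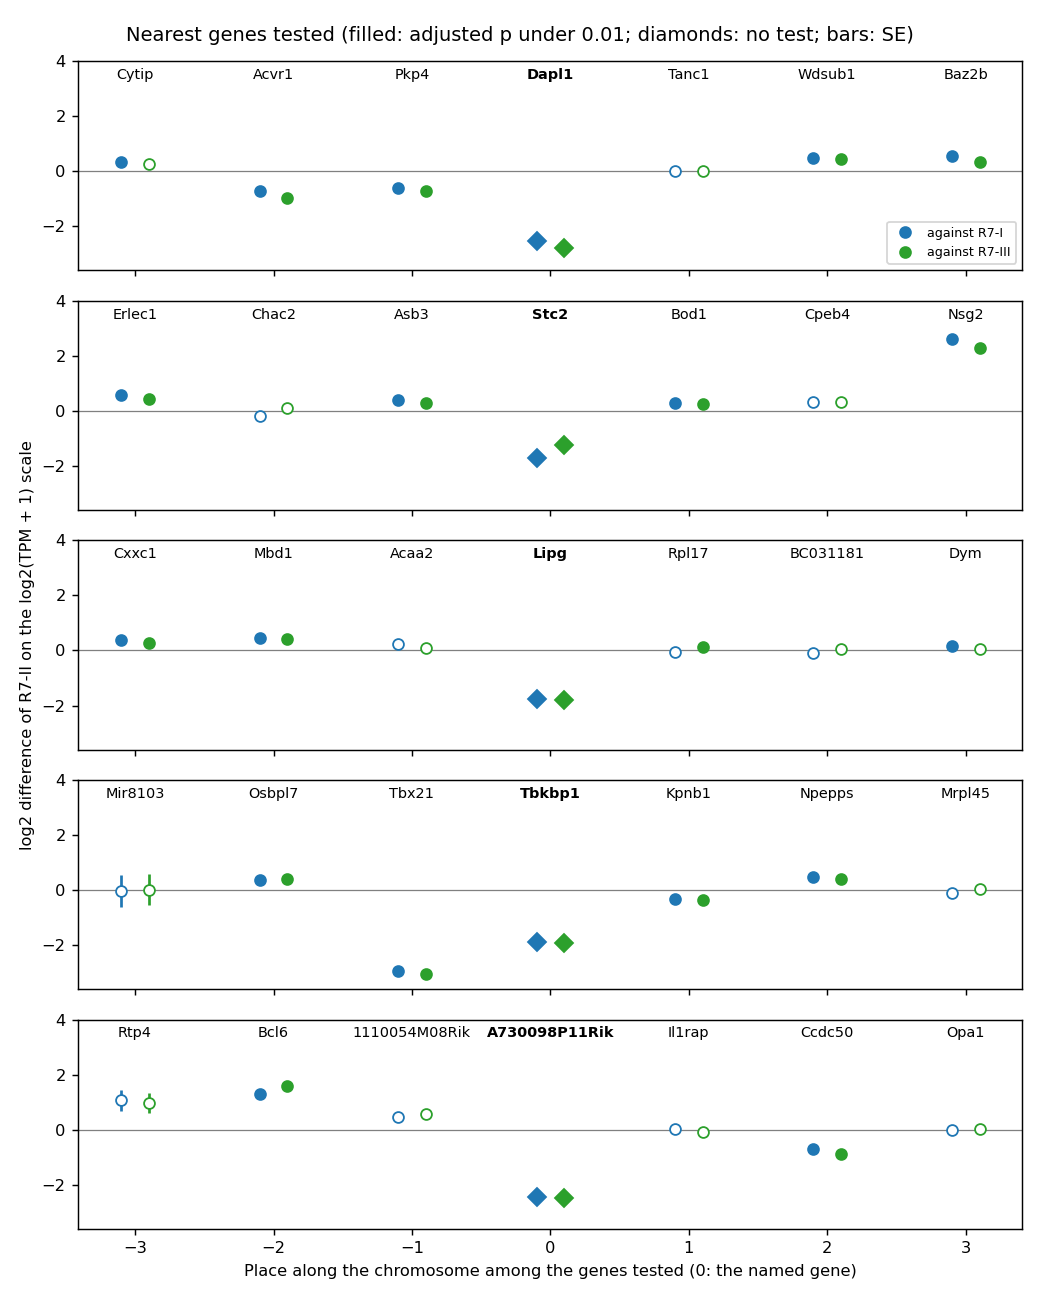
Log2 difference of R7-II on the log2(TPM + 1) scale against R7-I (blue) and R7-III (green), with its SE, for the 3 nearest genes tested on either side of each of the 5 genes, in chromosome order and not to scale along the chromosome; filled points passed an adjusted p of 0.01, open points did not, and diamonds mark the 5 genes, which were not tested. Tbx21 at -2.94 and -3.05 is the neighbour as low as the gene it lies beside, and Nsg2 beside Stc2 is high at 2.59 and 2.28.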

How the data were processed

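RNA of sorted CD8 T cells, activated by the ROP7 peptide, was sequenced in 9 libraries, 3 for each clone. The authors estimated gene levels with RSEM 1.2.11 on RefSeq genes of mm10 and deposited TPM values rounded to 2 decimals. The aligner under RSEM was not given in the sources used here. TPM keeps no depth, so no counting error could be given, and reads shared by similar genes were divided by estimation. The authors tested with DESeq2 1.8.1 on counts, which were not used here.

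Genes with a maximum above 1 TPM were put on the log2(TPM + 1) scale, and 1 linear model over the 9 libraries was fitted with limma 3.58.1 (R 4.3.3) and moderated with a mean-variance trend. Its p-values were adjusted after Benjamini and Hochberg and read at 0.01. The script was tested on simulated data. Positions and start site windows are from RefSeq for GRCm38.p6 (99.5% of the genes tested had a position), and transcripts from GENCODE M21, compared with blastn 2.17.0.

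The 5 genes and the gene lists were chosen with earlier results of these data known. Named were all 5 genes, direct partners in each list and its 3 largest changes, the 3 nearest genes tested on either side, and the 3 genes of most alike profile per gene. Morf4l1, Lpp and the other list genes were named after their values were seen. Alternatives were other pseudocounts, filters, scalings, moderation and thresholds, fits of the compared clones alone, a replicate block, and each library left out in turn. The result of 1 gene of the lipase list is not reported here.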

Additional observations from a re-analysis of the deposited data

How the results depend on the processing

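With 3 libraries per clone, TPM without depth and a BALB/c background read against a C57BL/6J reference, small differences are limited, and so is the level of A730098P11Rik. The 5 genes stayed below both other clones in R7-II under every alternative that kept them. Asking for at least 1 TPM in every library left Dapl1 and Lipg alone. The median log2 difference of all 5 genes against R7-I was -2.73 with a pseudocount of 0.1, -1.07 with one of 5 and -2.21 under quantile normalization. Against R7-III it was -2.43 and -1.10 with these pseudocounts. The median of the 2 genes with at least 1 TPM in every library was -2.30 against R7-III. Against R7-I, 7 genes of the TBK1 list passed under median-of-ratios scaling and 7 under quantile normalization, and 6 passed against R7-III under the former. For the stanniocalcin list against R7-I, 3 and 2 passed, and 3 to 5 with libraries left out in turn, 3 being without R7-I replicate 1.

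Between R7-III and R7-I, 2142 genes passed at an adjusted p of 0.05, and with libraries left out in turn 436 (without R7-I replicate 1) to 1120, with 577 without R7-I replicate 2 and 496, 497 and 530 without R7-III replicates 1, 2 and 3. At 0.05, 1 gene of the TBK1 list, 3 of the lipase list, 3 of the Dap list and 4 neighbours passed. The lipase list gave 0 with no filter, under quantile normalization, with no variance trend and with the replicate block, and 0 to 1 on leaving out libraries (0 without R7-I replicate 1 or 3 or any of R7-III). The Dap list gave 2 under median-of-ratios scaling. The stress list gave 2 with no trend and 2 to 5 on leaving out libraries (2 without any R7-I library or R7-III replicate 2 or 3). The neighbours gave 0 with no filter, no trend or the block, 2 with only the clones compared, and 0 to 2 on leaving out libraries (2 without R7-II replicate 2, 0 without any of R7-I or R7-III).

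Against R7-I, Opa1 became lower under median-of-ratios scaling (-0.17) and quantile normalization (-0.19), Eef2 under the former (-0.14), and Dym and Il1rap under the latter (-0.039 and -0.33). Of 231 comparisons of named genes, 162 kept their call under every alternative; the cause of the other changes was not tested.

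Deviations from the clone means had an r of -0.04 to 0.09 over 9 same-numbered pairs of libraries of different clones (0 of them above 0.1). Over 18 differently numbered pairs, r was -0.09 to 0.06. With 3 libraries per clone, these values over all genes cannot exclude a pairing that affects some genes. With the replicate block, 6015, 5786 and 733 genes passed for R7-II against R7-I, R7-II against R7-III and R7-III against R7-I. Without it, 6358, 6077 and 953 did.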
